A study of Mus musculus with 12 samples.

Results

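Cell cycle genes were followed in a mouse single-cell RNA sequencing study of tumours grown from a cell line labelled SCC35: 36 genes of the 32285 in the gene tables. Of these, 15 serve S phase (Mcm2, Mcm3, Mcm4, Mcm5, Mcm6, Mcm7, Pcna, Tyms, Gins2, Slbp, Ung, Cdc6, Uhrf1, Rrm1 and Rrm2) and 21 serve mitosis (Mki67, Top2a, Cdk1, Ccna2, Ccnb1, Ccnb2, Aurka, Aurkb, Bub1, Bub1b, Cenpe, Cenpf, Ube2c, Plk1, Prc1, Nusap1, Kif11, Kif23, Tpx2, Birc5 and Cdc20). They were taken as a list of symbols drawn up with earlier results of these data known, though the rule itself uses no measured value, and all 36 were found. The controls were lines 15 and 18, labelled Mif KO control, and the knockouts were lines 19 and 24, labelled Mif KO. The product of Mif, macrophage migration inhibitory factor, is a cytokine that cells secrete. Each group was thus 2 lines, and every contrast between groups is a contrast between 2 lines and 2 other lines. Dissociated cells were marked with hashtag antibodies, sorted for live cells and captured in 6 libraries, of which 4 held 1 line each and 2 were mixed. The hashtag names gave the line, the day (0, 6, 10 or 16) and a letter. Letters A and B came from the single-line libraries and letter C from the mixed ones, where day 0 was absent. Samples of days 6, 10 and 16 are called tumours here, while those of day 0 are called day 0 samples, since the labels do not say what they were. One mixed library also held 1 WT sample at each of days 6, 10 and 16. These belong to no labelled group, so they entered no test. How Mif was removed, whether a line was 1 clone, and the strain, age and host were not stated in the labels. Nothing said that hashtags were separate animals, so p-values measure only the spread between these samples.

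Before a cell divides it copies its DNA once and then separates the copies. In S phase the helicase of the Mcm2 to Mcm7 proteins, loaded with the help of Cdc6, opens the DNA, the clamp Pcna holds the polymerases on it, and ribonucleotide reductase (Rrm1 and Rrm2) with thymidylate synthase (Tyms) supplies the nucleotides. Transcription of many of these genes is driven by E2F factors when the retinoblastoma protein releases them. Cyclin A (Ccna2) and the B cyclins with Cdk1 then drive entry into mitosis, the kinases Plk1, Aurka and Aurkb build and steer the spindle, and Cdc20 activates the ubiquitin ligase that lets the chromosomes part. Many mitotic genes peak late in the cycle through complexes that bind CCAAT boxes and a short element called the cell cycle genes homology region, TTTGAA.

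Promoter sequences are shown because the S-phase and mitotic genes differed together in several comparisons. The sets held E2F-type elements and TTTGAA in different shares, which was not tested. RefSeq promoters (GRCm38.p6) were matched for 31 of the 36 genes, 13 of S phase and 18 of mitosis. Mcm4, Gins2, Ccna2, Aurkb and Tpx2 had no entry. The 250 bases before each start were searched on both strands. Each sequence below runs 5′ to 3′ on the gene's own strand and ends at the base before the start. Capitals mark CCAAT (or ATTGG, its other strand), TTTGAA and E2F-type elements.
Mcm5, chr8:75109329-75109508, plus strand: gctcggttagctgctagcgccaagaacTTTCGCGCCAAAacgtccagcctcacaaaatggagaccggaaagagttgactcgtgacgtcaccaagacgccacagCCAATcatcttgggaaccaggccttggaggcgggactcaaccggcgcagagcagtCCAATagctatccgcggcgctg
Pcna, chr2:132253181-132253330, minus strand: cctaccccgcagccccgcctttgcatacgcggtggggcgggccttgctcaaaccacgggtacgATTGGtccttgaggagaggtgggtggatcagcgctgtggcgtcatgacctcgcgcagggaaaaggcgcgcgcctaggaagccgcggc
Rrm2, chr12:24708104-24708253, plus strand: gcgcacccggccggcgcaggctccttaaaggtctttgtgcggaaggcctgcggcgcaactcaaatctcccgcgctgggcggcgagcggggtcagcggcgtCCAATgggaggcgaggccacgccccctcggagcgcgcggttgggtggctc
Mki67, chr7:135716380-135716529, minus strand: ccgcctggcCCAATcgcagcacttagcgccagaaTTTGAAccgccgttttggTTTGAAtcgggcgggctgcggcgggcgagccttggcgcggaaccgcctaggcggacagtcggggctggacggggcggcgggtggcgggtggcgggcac
Cdc20, chr4:118437344-118437493, minus strand: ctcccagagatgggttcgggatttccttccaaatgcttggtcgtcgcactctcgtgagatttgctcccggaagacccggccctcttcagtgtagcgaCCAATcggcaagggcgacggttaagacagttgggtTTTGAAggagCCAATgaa
Ccnb1, chr13:100786487-100786636, minus strand: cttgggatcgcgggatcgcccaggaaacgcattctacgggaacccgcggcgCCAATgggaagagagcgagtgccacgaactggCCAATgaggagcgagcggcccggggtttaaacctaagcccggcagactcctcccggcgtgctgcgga
Plk1, chr7:122159285-122159434, plus strand: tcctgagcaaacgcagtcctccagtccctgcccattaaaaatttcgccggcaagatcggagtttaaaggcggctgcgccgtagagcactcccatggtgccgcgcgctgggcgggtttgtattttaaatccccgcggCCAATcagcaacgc

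In the Mcm5 promoter the capitals TTTCGCGCCAAA hold 2 overlapping E2F-type elements, TTTCGCGC and, on the other strand, TTTGGCGC. An E2F-type element, meaning any of TTTCCCGC, TTTCGCGC, TTTGCCGC and TTTGGCGC, lay in 5 of the 13 S-phase promoters (Cdc6, Mcm5, Mcm6, Mcm7 and Uhrf1) and in 1 of the 18 mitotic ones (Cdk1). Over the promoters of 27025 genes the share was 2.16%. TTTGAA lay in 8 of the 18 mitotic promoters (Ccnb2, Cdc20, Cdk1, Kif11, Mki67, Prc1, Top2a and Ube2c), in 1 S-phase promoter (Mcm2) and in 18.3% of all genes. The same 8 mitotic promoters and that of Mcm2 also held CCAAT, a pairing found in 6.45% of all genes. CCAAT itself was common to both sets, in 10 S-phase and 16 mitotic promoters, against 37.5% of all genes. These matches describe letters in a window and were not tested.

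The libraries held 176381 cell barcodes, of which 163866 passed the filters and 100459 carried 1 hashtag. Total gene UMIs per library (UMI, unique molecular identifier, 1 count per captured molecule) were 151385933 to 239699029. Pairs of libraries shared 3.83 to 5.05% of the barcodes of the smaller one. Cell classes were gated on marker UMIs with no cell cycle gene among them. They were 63225 line cells, which lacked immune and stromal markers, 9567 macrophage-like cells and 3322 T-cell-like cells. Levels below are CPM, the gene's UMIs per 1000000 UMIs of all genes in the summed cells of 1 class and 1 sample. Melanocytic markers did not define the line cells: Mlana, Dct and Tyr were at 0.0, and Pmel, Sox10 and Mitf at 0.1, 0.4 and 13.6 CPM in the tumours. Mif itself stood at 1785 to 3113 in control line cells and at 42.7 to 743 in knockout line cells, so each sample stood on the side its label gives. No day 0 sample held the 20 cells of a class needed for macrophage-like or T-cell-like cells.

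The clearest contrast in the cell cycle genes lay at day 0. In the knockout line cells all 15 S-phase and all 21 mitotic genes stood below every control sample, as did 17.3% of the 12626 genes compared. The summed S-phase level was 1512 and 1455 in line 15 and 1666 in line 18, against 337.6 and 332.2 in line 19 and 498.8 and 479.2 in line 24. The summed mitotic level was 2400, 2379 and 2540 in the same controls, against 663.0, 832.8, 903.1 and 784.9 in the same order of knockout samples. Both sums thus fell into 2 groups without overlap, and the spread within each group was small beside the gap. With day 0 fitted alone (added after the levels had been seen), all 36 genes passed edgeR's quasi-likelihood test as lower in the knockouts, where 18.9% of 11884 genes did. With 1 line left out at a time the count was 33 to 36, but without line 15 the control arm was 1 sample, whose spread is assumed to be that of the knockout samples. Summed markers of other cell types in these line cells were low and moved with the groups. In control and knockout samples macrophage markers were at 13.23 to 18.87 and 26.99 to 41.73 CPM, endothelial markers at 7.14 to 18.52 and 36.43 to 38.48, general immune markers at 3.22 to 6.12 and 7.301 to 18.14, T-cell markers at 0 to 0.322 and 0.4028 to 2.729, and fibroblast markers at 7.084 to 62.22 and 19.01 to 71.89. No marker of these 5 lists was at 0 over the day 0 samples together. Single genes made up most of some sums there. Egfl7 was at 26.2 of 30.19 CPM (endothelial), Cd68 at 15.9 of 28.47 (macrophage) and Col3a1 at 24.0 of 35.32 (fibroblast). The gates did not use these genes, because day 0 cells held UMIs of them. The part of the markers in the result was not tested. In such sums fewer cells in cycle and less RNA per cell in cycle cannot be told apart.

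Among the genes of the replication helicase, Mcm5 was at 121.0, 122.0 and 138.7 CPM in the control samples and at 14.1, 14.6, 22.62 and 20.87 in the knockouts. Its log2 fold change was −2.94 (SE 0.17, adjusted p = 4.14e-05). Cdc6, the loader of the helicase, was at 29.6, 29.3 and 29.07 against 3.625, 2.586, 5.349 and 3.772, the widest gap of the 36 at −3.08 (SE 0.22, adjusted p = 8.58e-05). In both genes the knockout samples lay far under the controls, with both samples of line 24 above both of line 19. Mcm2 differed more between the knockout lines: line 19 held 14.9 and 15.51, line 24 held 38.85 and 42.05, and the controls 69.85, 71.97 and 80.58. Its fold change of −1.53 carried the widest error of the S-phase genes (SE 0.36, adjusted p = 0.0131).

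The genes of nucleotide supply were also lower in the knockouts. Rrm2, the small subunit of ribonucleotide reductase, was at 129.1, 121.1 and 146.9 CPM in the controls and at 27.79, 27.99, 18.77 and 19.9 in the knockouts (−2.64, SE 0.18, adjusted p = 7.57e-05). Tyms was at 117.4, 117.4 and 106.1 against 26.59, 19.62, 22.71 and 22.95 (−2.47, SE 0.12, adjusted p = 3.45e-05). The clamp gene Pcna changed less than either. It was at 127.7, 119.5 and 141.3 against 38.67, 41.45, 67.85 and 67.41, with line 24 above line 19 (−1.40, SE 0.20, adjusted p = 0.0016). Slbp, which binds the ends of histone messages, was the S-phase gene of smallest change (−1.35, SE 0.19, adjusted p = 0.00152).

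Of the mitotic genes, Mki67, the gene of the proliferation antigen Ki-67, was at 154.7, 152.1 and 174.4 CPM in the controls and at 30.61, 43.88, 51.43 and 45.82 in the knockouts (−2.03, SE 0.15, adjusted p = 9.78e-05). Plk1 was at 80.25, 83.88 and 73.44 against 16.11, 18.48, 16.8 and 12.92 (−2.45, SE 0.14, adjusted p = 4.21e-05). Ccna2 was at 172.4, 147.0 and 215.7 against 27.79, 36.66, 37.91 and 27.85, the widest gap among the mitotic genes (−2.58, SE 0.17, adjusted p = 6.44e-05). Here too no knockout sample came near a control. Birc5, which encodes survivin of the chromosomal passenger complex, was at 232.7, 225.1 and 217.8 against 43.1, 52.09, 39.6 and 38.04 (−2.53, SE 0.13, adjusted p = 4.03e-05). Ccnb1, cyclin B1, was at 84.77, 86.3 and 91.29 against 20.14, 27.45, 29.84 and 28.09 (−1.86, SE 0.12, adjusted p = 6.44e-05). Cdc20 was at 112.0, 113.2 and 80.07 against 26.18, 34.37, 23.27 and 19.34, with line 18 under line 15 (−2.14, SE 0.22, adjusted p = 0.00037). Tpx2, a spindle assembly factor, changed least of the 21, at −1.04 (SE 0.11, adjusted p = 0.000466), and Top2a, topoisomerase II alpha, stood at −1.32 (SE 0.15, adjusted p = 0.000556).

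The other genes held to this pattern with differences of degree. Mcm3, a further helicase subunit, was at 201.6, 191.8 and 215.7 CPM in the controls, at 31.02 and 32.4 in line 19 and at 58.28 and 54.49 in line 24 (−2.34). Uhrf1 was at 54.85, 54.9 and 68.34 against 8.056, 8.594, 17.74 and 14.69 (−2.37). In both, line 24 lay between line 19 and the controls. Of the 15 S-phase genes 12 were higher in both samples of line 24 than in both of line 19, as were 10 of the 21 mitotic genes and 43.3% of 11713 genes with a mean of at least 1 CPM. Rrm2 was the 1 S-phase gene with the reverse order, which Birc5 and Cdc20 shared among the mitotic genes. Ung, the uracil glycosylase that repairs uracil in DNA, was at 21.13, 24.96 and 32.13 against 6.042, 4.107, 4.599 and 5.537 (−2.52). Cdk1 was at 156.1, 156.0 and 185.1 against 41.49, 45.33, 54.34 and 44.14 (−1.98), with the knockout samples of both lines close together. Kif23, a motor of the cleavage furrow, was at 39.36, 40.89 and 38.76 against 9.265 and 17.87 in line 19 and 28.72 and 23.75 in line 24, the widest error of the mitotic genes (−1.10, SE 0.28, adjusted p = 0.0183).

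**Figure D1:**
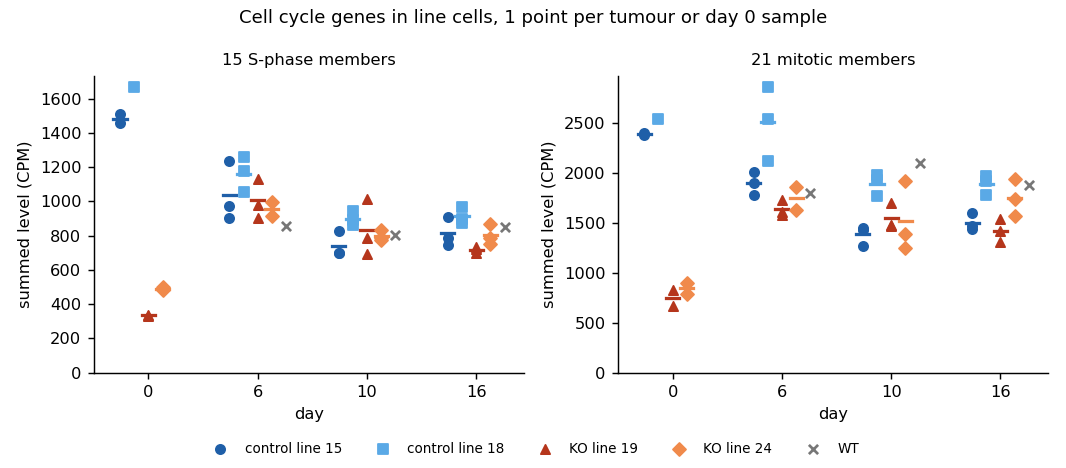
Summed S-phase and summed mitotic level (CPM, vertical axes) of line cells by day (horizontal axis), with 1 point per sample and a bar at the mean of each line. At day 0 the 3 control samples sit at 1455 to 1666 (S phase) and 2379 to 2540 (mitosis), above the 4 knockout samples at 332.2 to 498.8 and 663.0 to 903.1, and from day 6 on the groups overlap.

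The same contrast appeared cell by cell. Each cell was thinned to 1000 UMIs, to put all cells at 1 depth, and a cell was counted when it kept at least 2 S-phase or at least 2 mitotic UMIs. At day 0 the S-phase share was 38.7 to 47.0% of line cells in the controls (median 40.6%) and 5.86 to 9.07% in the knockouts (median 7.04%). The mitotic share was 49.0 to 52.8% against 9.53 to 11.1%. Without thinning the S-phase shares were 82.8 to 90.9% and 46.7 to 60.6%, and the mitotic shares 84.5 to 87.3% and 27.3 to 47.8%. Cells with neither made up 32.8 to 33.9% of the thinned control cells and 83.0 to 85.2% of the knockout cells. Cells with both made up 22.45 to 30.2% and 1.852 to 3.002%. Median UMIs per line cell overlapped between the groups, at 8524 to 18200 in the controls and 6019 to 11360 in the knockouts. Line 18 was at 8524, below line 19 at 10920 and 11360. Day 0 had 1 library per line, so line and library cannot be told apart there. The ratio of the mitotic to the S-phase sum was 1.525 to 1.635 in the controls and 1.638 to 2.507 in the knockouts, so every knockout sample had the higher ratio, the closest pair by a small margin.

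Other genes of the pathway, given by list from the same fit of day 0, were also mostly lower in the knockouts, where 18.9% of all genes were. Of 15 further replication genes, 15 were lower in the knockouts, led by Tk1 (thymidine kinase, −2.87), Orc1 (origin recognition, −2.39) and Cdc45 (helicase cofactor, −2.29). Of 24 further mitotic genes, 23 were lower, among them Spc24 (kinetochore, −2.39), Kif20a (cytokinesis, −2.31) and Cdca8 (chromosomal passenger complex, −2.06). Of 9 G1 cyclins and kinases, 8 were lower, including the E cyclins Ccne2 (−2.45) and Ccne1 (−2.36), the partners of Cdk2 (−1.52). Of the 10 retinoblastoma and E2F genes 6 were lower, with E2f7 at −2.36 and E2f8 at −1.82, and 1 was higher. Of 5 tested transcription factors of mitotic genes 4 were lower, with Mybl2 at −3.001 and Foxm1 at −2.26. The 4 CDK inhibitors tested did not move one way. Cdkn1b, which encodes the inhibitor p27, was higher in the knockouts (0.81) and Cdkn2d lower (−0.97).

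By day 6 the sums of the groups overlapped. In the knockout lines the summed S-phase level of line cells was 901.7 to 1133 (median 980.6) and in the controls 903.4 to 1257 (median 1114). The change from day 0 to day 6 was greater in the knockouts than in the controls for 36 of the 36 genes, a test of the difference itself (group by day term, added after the levels had been seen, edgeR's quasi-likelihood test). Of all 13093 genes 15.6% passed in that direction. The median difference of log2 changes was 2.03 over the S-phase genes (1.34 to 2.85) and 1.45 over the mitotic genes (0.94 to 1.98), against −0.04 over all genes. With 1 line left out the count was 32 to 36.

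Cdc6 led the S-phase genes at 2.85 (SE 0.30, adjusted p = 1.12e-09), followed by Mcm5 at 2.66 (SE 0.21, adjusted p = 1.71e-12) and Rrm2 at 2.58 (SE 0.20, adjusted p = 1.64e-12). The 5 knockout tumours of day 6 held Mcm5 at 69.56, 75.98 and 82.18 CPM in line 19 and at 65.4 and 59.11 in line 24, within the 58.69 to 98.35 (median 85.06) of the 6 control tumours. Birc5 led the mitotic genes at 1.98 (SE 0.18, adjusted p = 4.48e-11), followed by Ccna2 at 1.92 (SE 0.19, adjusted p = 3.81e-10). Uhrf1, which couples DNA methylation to replication, stood at 2.30 (SE 0.21, adjusted p = 7.73e-11). Differences for Mki67 (1.84, SE 0.18, adjusted p = 1.95e-10), Cdc20 (1.71, SE 0.18, adjusted p = 1.6e-09), Pcna (1.49, SE 0.14, adjusted p = 6.2e-11) and Top2a (1.45, SE 0.20, adjusted p = 2.7e-07) passed as well. Ccnb1 had a smaller difference, 1.09 (SE 0.17, adjusted p = 4.45e-06).

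Each line was also fitted alone. From day 0 to day 6 all 36 genes rose in line 19 and all 36 in line 24, where 22.4% and 20.3% of all genes rose. In line 15, 14 genes fell (8 of S phase and 6 of mitosis; 13.2% of all genes fell) and in line 18, 3 S-phase genes fell (1.29% of all genes). Line 18 had 1 day 0 sample, so its test took the spread from the tumours of that line and assumed that day 0 varied alike. Over the 4 lines together 18 genes rose (5 of S phase, 13 of mitosis; 25.1% of all genes rose). With 1 line left out that count was 1 to 36, so the joint contrast rested on which lines entered it. Of the listed genes outside the 36, the group by day term was positive for 15 of 15 replication genes, 20 of 24 mitotic genes, 8 of 9 G1 cyclins and kinases and 5 of 5 mitotic transcription factors (15.6% of all genes), while Cdkn1b went the other way (−0.96).

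**Figure D2:**
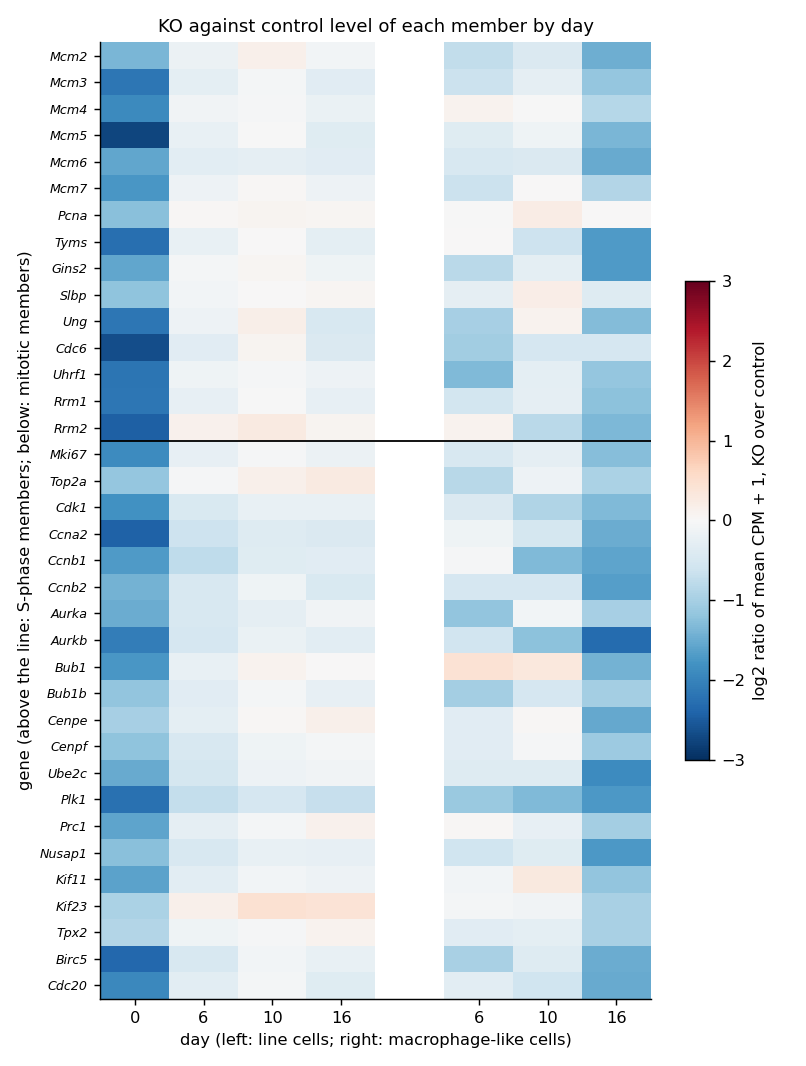
Log2 ratio of mean CPM + 1 in knockout over control samples (colour, from −3 to 3) for each of the 36 genes (rows), in line cells at days 0, 6, 10 and 16 (left) and in macrophage-like cells at days 6, 10 and 16 (right). All 36 genes are lower in the knockouts in the day 0 column of line cells, the later line cell columns are pale, and the day 16 column of macrophage-like cells is again low for most genes.

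Within the tumours the sums of line cells had lower medians at day 10 than at day 6 in both groups. The summed S-phase level of the controls was 903.4 to 1257 (median 1114) at day 6, 697.5 to 941.1 (median 843.7) at day 10 and 743.9 to 968.8 (median 886.6) at day 16. In the knockouts the medians were 980.6, 785.8 and 740.6. The summed mitotic level of the controls was 1785 to 2866 (median 2066), 1272 to 1980 (median 1611) and 1441 to 1975 (median 1692), and the knockout medians were 1629, 1475 and 1556. From day 6 to day 10 7 genes fell: Mcm7 (−0.45, adjusted p = 0.0357), Mcm2 (−0.41, adjusted p = 0.0477), Ccna2 (−0.54, adjusted p = 0.0271), Aurka (−0.44, adjusted p = 0.0241), Plk1 (−0.43, adjusted p = 0.0429), Ube2c (−0.40, adjusted p = 0.0432) and Tpx2 (−0.36, adjusted p = 0.0118). That is against 13.0% of 12743 genes, so the count lay near the background. The count of 7 was 0 to 14 with 1 line left out. The signs went 1 way: of the 36 genes 0 had a log2 fold change above 0. Their median was −0.37, against 0.003 over all genes. In edgeR's test 27 of the 36 had an unadjusted p under 0.05, as did 4918 of 12743 genes in either direction. Lines 15 and 18 alone gave 27 genes each, where 5.91% and 9.26% of all genes fell, and lines 19 and 24 alone gave 3 and 1, where 3.36% and 0.322% fell. From day 10 to day 16 edgeR called no gene of the 36, where 0.447% of all genes were called, and DESeq2 called 0. None of the 36 had an unadjusted p under 0.05 by edgeR, while 1078 of 12743 genes had.

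Between day 6 and day 16 the 2 groups' courses differed in 3 mitotic genes, each higher in the knockouts relative to the controls: Ccnb1 (0.51, SE 0.14, adjusted p = 0.018), Ube2c, the ubiquitin-conjugating enzyme that works with Cdc20 (0.53, SE 0.17, adjusted p = 0.0426), and Cenpe, a kinetochore motor (0.51, SE 0.16, adjusted p = 0.0328). Of all genes 5.03% passed in that direction, so the count lay near the background, and with 1 line left out it was 0 to 3. Ccnb1 was at 64.33 to 101.2 CPM (median 73.87) in the control tumours of day 6 and at 48.84 to 66.36 (median 52.25) at day 16. In the knockouts it was at 45.63, 46.48, 48.06, 48.83 and 46.78 at day 6 and at 40.1 to 49.07 (median 43.61) at day 16. The medians of the knockout tumours thus lay closer together than those of the control tumours.

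Taking all days with day as a covariate, 11 S-phase and 16 mitotic genes were lower in the knockout line cells, against 23.8% of 12626 genes. The median log2 fold change was −0.42 over the S-phase genes and −0.45 over the mitotic genes, against 0.01 over all genes. Plk1 changed most (−0.90, SE 0.12, adjusted p = 2.3e-07), then Ccna2 (−0.77, SE 0.15, adjusted p = 6.5e-05) and Ccnb1 (−0.66, SE 0.11, adjusted p = 3.42e-06). Cdc6 (−0.64, SE 0.19, adjusted p = 0.00511), Mcm5 (−0.57, SE 0.17, adjusted p = 0.00601), Cdc20 (−0.51, SE 0.13, adjusted p = 0.0015) and Mki67 (−0.42, SE 0.13, adjusted p = 0.00898) also fell, while Pcna (−0.15, SE 0.11, adjusted p = 0.246), Rrm2 (−0.19, SE 0.21, adjusted p = 0.471) and Top2a (−0.07, SE 0.13, adjusted p = 0.697) did not pass. Of the 27 genes, 14 were called without day 0, and day 6, day 10 and day 16 alone gave 9, 2 and 5 calls, where 17.7%, 16.9% and 15.3% of all genes were called in either direction. With 1 sum per line the count was 0, and with library as a term it was 0. The share of all genes called is not given here for these fits or for the fit without day 0.

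After day 0 the groups overlapped in most genes, and no gene was separated on all 3 days. At day 6, 4 mitotic genes (Ccnb1, Ccnb2, Plk1 and Birc5) and no S-phase gene lay below every control tumour, against 5.07% of all genes. At day 10 no gene did, against 5.24%. At day 16 Mcm5, Ccnb2, Plk1 and Cdc20 did, against 7.33%. Such counts lie near the background and are not read as a result about the 36 genes. Plk1 was at 29.62, 31.56, 33.86, 25.05 and 32.96 CPM in the knockout tumours of day 6 and at 43.37 to 57.01 (median 51.61) in the controls. At day 16 it was at 20.99 to 27.6 (median 25.69) against 38.13 to 45.06 (median 40.7). In the WT tumours Plk1 was at 37.0, 37.0 and 32.57 at days 6, 10 and 16, which lay between the groups at days 6 and 16. The summed S-phase level of the WT tumours was 857.3, 802.1 and 850.4 at those days and their mitotic sum 1805, 2104 and 1885.

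Lines of 1 group differed from each other in single genes. Over days 6 to 16 Rrm2 was at 71.19 to 122.0 CPM (median 88.0) in line 19 and at 34.77 to 53.79 (median 39.19) in line 24, without overlap, while the medians of lines 15 and 18 were 53.21 and 60.16. Pcna had the opposite order, at 66.08 to 87.01 in line 19 and 87.32 to 128.2 in line 24. Kif23 was at 49.12 to 70.35 in line 24 and at 30.57 to 45.26 in line 19, and Slbp at 82.29 to 112.7 and 57.22 to 73.11. Top2a separated the control lines, at 115.3 to 191.2 in line 15 and 199.0 to 335.3 in line 18, as did Cenpf, a kinetochore protein, at 101.1 to 149.1 and 174.3 to 287.9. These genes were chosen after their values had been seen and were not tested. The share of all genes so separated over days 6 to 16 is not given here. At day 0, 43.3% of 11713 genes were higher in both samples of line 24 than in both of line 19, and 32.2% were lower.

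For 2 mitotic genes the level also went with the letter. In line cells Mki67 and the checkpoint kinase Bub1 were higher in the C tumour than in the A and B tumours in all 12 sets of 1 line and 1 day (1 set, line 24 at day 6, had no B tumour), which held for 0.436% of 11704 genes with a mean of at least 1 CPM. Mcm4 and Top2a were higher in 10 sets, while Ube2c was lower in 8 and Slbp in 7. The share of all genes at these lower counts is not given here, so they are not read as a result. In line 15, C held Mki67 at 130.3, 118.7 and 133.4 CPM over days 6, 10 and 16, against 83.01 to 118.6 in A and B. The letter C and the mixed library cannot be told apart, and the pattern was noticed in these data.

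In the macrophage-like cells the cell cycle genes were lower in knockout tumours too, and at day 16 the sums of the groups did not overlap. Macrophages are phagocytes that can divide within tissues, as do the monocyte-derived cells that replace them. Over days 6 to 16, 8 of 13 tested S-phase and 15 of 19 tested mitotic genes were lower in the knockouts, against 18.3% of 6522 genes. The other 4 genes did not pass the filter on low counts. The medians over the tested genes were −0.56 and −0.73, against −0.004 over all genes. Plk1 (−1.59, SE 0.23, adjusted p = 1.58e-06), Aurkb (−1.58, SE 0.26, adjusted p = 7.95e-06) and Ccnb1 (−1.39, SE 0.28, adjusted p = 0.000166) led the mitotic genes. Tyms (−0.85, SE 0.24, adjusted p = 0.00463) and Mcm6 (−0.76, SE 0.19, adjusted p = 0.00181) led the S-phase genes. Mki67 (−0.64, SE 0.15, adjusted p = 0.000989) and Top2a (−0.45, SE 0.18, adjusted p = 0.0461) fell as well, and Pcna did not (0.21, SE 0.11, adjusted p = 0.126). The count was 2 without line 24 and up to 26 otherwise, 6 with 1 sum per line, 4 with cells thinned and 1 with library as a term. The share of all genes called in these refits is not given here, so the lower counts are not read as particular to the cell cycle genes.

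Day 16 fitted alone (added after the levels had been seen) called 32 of 34 tested genes lower, 11 of S phase and 21 of mitosis, against 15.3% of 7660 genes. Without line 24 it called 8, and the share of all genes called in that fit is not given here. Day 10 alone called 2 genes and day 6 alone 0, where 10.4% and 3.46% of all genes were called in either direction. The summed mitotic level at day 16 was 883.7 to 1502 (median 1262) in the 6 control tumours and 344.5 to 677.9 (median 459.9) in the 6 knockout tumours, and the summed S-phase level 574.3 to 890.9 (median 705.0) against 262.5 to 441.5 (median 363.0). Neither sum overlapped. The WT tumour of day 16 lay between the groups, with 483.9 for S phase and 794.6 for mitosis, below all 6 control tumours. At day 6 and day 10 the sums of the control and knockout tumours overlapped: the mitotic sums were 281.3 to 1296 against 489.0 to 697.1, and then 566.2 to 1347 against 425.2 to 1247. Within the 1 mixed library that held 3 lines at day 16, the S-phase and mitotic sums were 752.7 and 1410 in line 15, 711.2 and 1327 in line 18, and 441.5 and 677.9 in line 19.

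Gene by gene, Ube2c at day 16 was at 126.5 to 209.7 CPM (median 164.3) in the control tumours and at 19.77 to 57.98 (median 47.95) in the knockouts (−1.79, SE 0.18, adjusted p = 1.65e-06). Mki67 was at 81.13 to 167.7 (median 153.6) against 45.18 to 66.9 (median 57.58), with a log2 fold change of −1.17 (SE 0.17, adjusted p = 6.52e-05). Mcm6 was at 67.56 to 96.78 (median 87.37) against 18.02 to 36.49 (median 31.22), with −1.49 (SE 0.17, adjusted p = 5.65e-06). The groups did not overlap in any of the 3. Mcm5 was at 47.63 to 63.63 (median 52.31) against 7.722 to 40.14 (median 16.58), and Birc5 at 106.6 to 146.9 (median 124.4) against 19.77 to 62.03 (median 45.62). Plk1 was at 23.86 to 28.86 against 0 to 15.44. Cdc20 overlapped through 1 tumour, line 19 C at 31.22, where the other knockouts were at 0 to 9.012 and the controls at 19.09 to 44.59. Pcna was the exception: it was at 75.56 to 109.1 (median 103.4) in the controls and at 54.05 to 121.4 (median 102.0) in the knockouts (0.24, adjusted p = 0.208). Slbp did not pass either (−0.19, adjusted p = 0.369). In all, 7 S-phase and 11 mitotic genes lay below every control tumour, against 10.9% of all genes.

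Per cell, thinned to 1000 UMIs, the share with at least 2 mitotic UMIs at day 16 was 12.9 to 22.8% in the controls (median 19.9%) and 4.49 to 17.0% in the knockouts (median 8.77%). The S-phase share was 8.87 to 18.4% (median 14.6%) against 1.91 to 10.7% (median 5.06%). These shares overlapped, and without thinning they were 31.5 to 42.4% against 12.3 to 25.3% for mitosis and 32.0 to 42.9% against 12.5 to 29.7% for S phase. Cells under 1000 UMIs were left out, 5.78% of control and 7.55% of knockout macrophage-like cells over all days. Several other values moved with the groups at day 16. Median UMIs per cell were 2557 to 4688 in the controls and 1404 to 3447 in the knockouts. Cd68 was at 966.9 to 1479 against 193.0 to 653.1, Ms4a7 at 1032 to 1286 against 417.0 to 956.0, C1qa at 3267 to 4014 against 1220 to 3280 and Lyz2 at 4752 to 7068 against 2880 to 4908. The summed T-cell markers were at 0.68 to 3.8 against 0 to 28.24, and 6 line genes (Serpinh1, Pcolce, Cavin3, Sparc, Emp2 and Tm4sf1) at 111.8 to 341.6 against 238.8 to 530.7. Their part in the result was not tested.

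**Figure D3:**
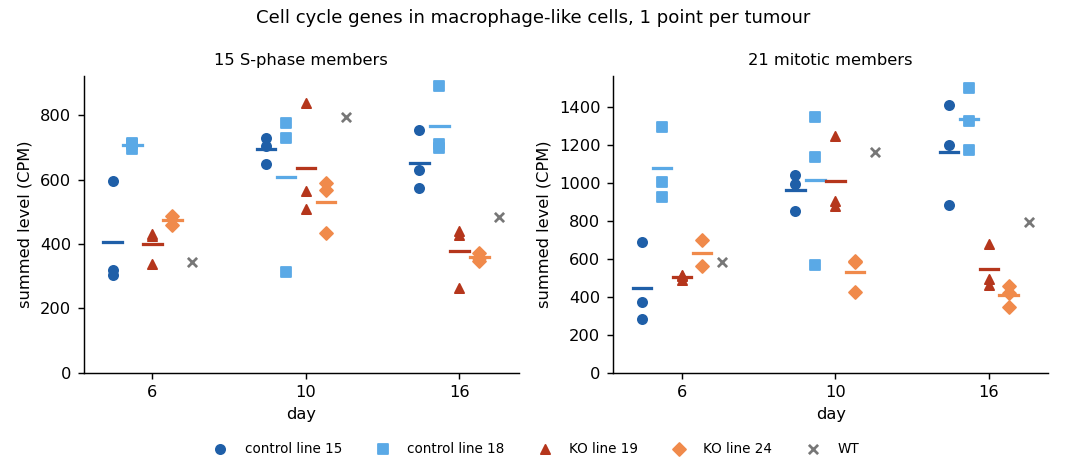
Summed S-phase and summed mitotic level (CPM, vertical axes) of macrophage-like cells by day (horizontal axis), with 1 point per tumour and a bar at the mean of each line. At day 16 the 6 knockout tumours sit at 262.5 to 441.5 (S phase) and 344.5 to 677.9 (mitosis), below the 6 control tumours at 574.3 to 890.9 and 883.7 to 1502, while the groups overlap at days 6 and 10.

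Across days, 4 S-phase genes (Tyms 1.27, Rrm2 1.01, Mcm7 0.85 and Mcm4 0.75) and 5 mitotic genes (Ccnb1 1.27, Ccnb2 1.18, Cdc20 1.17, Birc5 0.85 and Mki67 0.79) rose in macrophage-like cells from day 6 to day 10, against 4.95% of 6950 genes. With 1 line left out the count was 0 to 20. From day 10 to day 16 none was called, nor was any of all genes (0.0%), and DESeq2 called 0 of the 36. In edgeR's test 2 of 34 tested genes had an unadjusted p under 0.05, as did 611 of 6950 genes. The difference between the groups' courses from day 6 to day 16 was called in none of 34 tested genes, where 2.71% of all genes were called in either direction. DESeq2 called 0 as well. By edgeR 6 of the 34 had an unadjusted p under 0.05, as did 981 of 7154 genes. Among the 6 were Rrm2 (−1.72, SE 0.68, adjusted p = 0.195) and Ccna2 (−1.38, SE 0.52, adjusted p = 0.17). The wider day 16 gap is thus not shown to differ from that of day 6. Of the listed genes outside the 36, the G1 cyclins and kinases went both ways over all days: Ccnd2 was higher in the knockouts (1.51), and Ccnd3 (−0.80) and the kinase Cdk6 (−0.62) lower. Cdkn1a, which encodes the inhibitor p21, was higher (0.50) and Cdkn2d lower (−1.08). Replication genes fell in 7 of 11, among them Tk1 (−1.38), Gmnn (−0.89) and Cdt1 (−0.81), and mitotic genes in 10 of 17, where 18.3% of all genes fell.

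In the T-cell-like cells 1 gene of 19 tested differed between the groups over days 6 to 16, no more than the background. T cells that meet antigen expand by rapid division. Pcna was higher in the knockout tumours (0.59, SE 0.16, adjusted p = 0.0133), the only one of 10 S-phase and 9 mitotic genes tested, against 6.44% of 2579 genes. Over days 6 to 16 it was at 60.85 to 233.9 CPM (median 155.2, 17 tumours) in the knockouts and 72.82 to 162.1 (median 113.9, 11 tumours) in the controls, so the ranges overlapped. At day 6 the control tumours held 102.6 and 89.33, and the knockouts 201.4, 164.8, 176.4, 150.3 and 233.9, all higher. At day 16 the controls held 126.7, 113.9, 133.5, 72.82 and 136.7, and the knockouts 60.85 to 218.6 (median 166.6). With 1 line left out between 0 and 3 genes were called. No gene was called with thinned cells, the stricter gate, 1 sum per line, the mixed libraries alone or library as a term. DESeq2, no filter and hashtags called by counts each called more than 1. Slbp was next (0.49, SE 0.17, adjusted p = 0.0525).

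Mki67 had the opposite sign in these cells and did not pass (−0.56, SE 0.22, adjusted p = 0.0856). It was at 36.51 to 336.8 CPM (median 109.1) in the knockouts and at 102.6 to 567.5 (median 182.3) in the controls. Rrm2 (−0.54, SE 0.29, adjusted p = 0.225) and Mcm5 (−0.42, SE 0.20, adjusted p = 0.188) did not pass either. Ccnb1 and Cdc20 held too few UMIs to be tested. At least 20 T-cell-like cells were found in 2, 4 and 5 control tumours at days 6, 10 and 16, against 5, 6 and 6 knockout tumours. The S-phase sum of the knockouts was 617.7 to 1482 at day 6, 646.8 to 961.6 at day 10 and 608.5 to 1408 at day 16, and that of the controls 902.7 to 1176, 896.2 to 1398 and 1063 to 1519. The mitotic sum of the knockouts was 693.8 to 1339, 769.7 to 1094 and 681.5 to 1716, and that of the controls 666.8 to 1444, 657.2 to 3344 and 1210 to 2185. Over the 3 days the median mitotic sum was 1094 in the knockouts and 1592 in the controls, with ranges that overlapped. edgeR called no gene of the 36 from day 6 to day 10 or from day 10 to day 16, where 1.68% and 0.109% of all genes were called. From day 6 to day 10, 4 of 21 tested genes had an unadjusted p under 0.05, as did 427 of 2740 genes. From day 10 to day 16, 13 of the 21 had, against 270 of 2740 genes. DESeq2 called 0 and 1 genes in these contrasts. The nearest were Tyms (0.93, SE 0.22, adjusted p = 0.054) and Mcm3 (0.79, SE 0.19, adjusted p = 0.0607), both higher at day 16. The groups' courses from day 6 to day 16 differed in none of 25 tested genes, where 0.0899% of all genes were called, and DESeq2 called 0. None of the 25 had an unadjusted p under 0.05 by edgeR, while 272 of 3338 genes had.

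At day 10 alone (added after the levels had been seen) the T-cell-like cells of the knockouts were lower in 3 mitotic genes of 12 genes tested, where 0.535% of 2241 genes were. Mki67 was at 149.4, 178.7, 221.5 and 567.5 CPM in the 4 control tumours and at 132.3, 83.57, 73.22, 129.2, 93.43 and 101.1 in the knockouts (−1.36, SE 0.32, adjusted p = 0.0429). Ube2c was at 44.81, 324.9, 412.5 and 364.8 against 77.48 to 158.7 (−1.57, SE 0.34, adjusted p = 0.0315), and Birc5 at 59.75, 195.0, 229.2 and 243.2 against 61.02 to 97.0 (−1.27, SE 0.28, adjusted p = 0.0326). The groups were apart in Mki67, while in Ube2c and Birc5 1 control tumour, line 15 B, lay below every knockout. Mcm3, Mcm5, Mki67 and Cenpe lay below every control tumour, against 2.44% of all genes, and Mcm5 did not pass (−0.96, SE 0.31, adjusted p = 0.12). The count of 3 was 0 without line 18, 19 or 24 and 8 without line 15, and the control tumours held 20 to 67 such cells each. Days 6 and 16 alone called 0 of the 36 genes by edgeR, where 0.0567% and 12.3% of all genes were called in either direction. An unadjusted p under 0.05 was found for 2 and 3 of the 36, and the like share of all genes is not given here.

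The 3 classes carried the 2 gene sets in different proportion. The median summed S-phase level over the tumours of days 6 to 16 was 1080 CPM in T-cell-like cells, 876.0 in line cells and 566.9 in macrophage-like cells. The median mitotic sum was 1311, 1705 and 697.1, so line cells had the highest mitotic and T-cell-like cells the highest S-phase median, and the ratio of the mitotic to the S-phase sum was 1.18, 1.97 and 1.43. Much of the S-phase gap between T-cell-like and line cells lay in Slbp (medians 161.2 and 80.11) and Pcna (138.1 and 80.48), and without both genes the S-phase medians were 797.5, 713.0 and 376.1. Median shares of thinned cells with at least 2 UMIs were 20.6%, 17.3% and 10.1% for S phase and 18.6%, 25.8% and 12.9% for mitosis. The mitotic order of T-cell-like and line cells turned with the rule: it was 40.0% against 35.8% with cells thinned to 2000 UMIs, and 45.33% against 44.56% with at least 1 UMI. Thinning to 2000 UMIs kept the deeper 29.4% of T-cell-like cells and 93.8% of line cells, and thinning to 1000 UMIs kept 87.9% of T-cell-like cells and all line cells. With the tumour as a block, 31 genes were higher in line cells than in macrophage-like cells, against 43.1% of 12586 genes, led by Cenpf (1.55), Cdc20 (1.40), Ccna2 (1.36) and Ccnb1 (1.30). Pcna was the 1 gene that was lower (−0.58, SE 0.06, adjusted p = 3.49e-11), against 38.7%. Of 34 tested genes 26 were higher in T-cell-like than in macrophage-like cells, against 30.9% of 7820 genes, led by Rrm2 (1.78), Nusap1 (1.28), Slbp (1.27), Kif11 (1.21) and Tyms (1.18).

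Between line cells and T-cell-like cells 19 of the 36 genes differed, where 72.0% of all genes did, and the sets were not tested against each other. Of the mitotic genes 12 were higher in line cells, against 42.9% of 12422 genes, with Cdc20 at 1.37 (SE 0.17, adjusted p = 9.31e-10), Ccnb1 at 1.25 (SE 0.18, adjusted p = 2.44e-08) and Plk1 at 1.18 (SE 0.19, adjusted p = 5.48e-07). Nusap1, which bundles spindle microtubules, and Mki67 went the other way (−0.72 and −0.31). Of the S-phase genes 3 were lower in line cells (Slbp −1.07, Pcna −0.72 and Uhrf1 −0.31), against 29.1% of all genes, and 2 higher (Gins2 0.39 and Mcm6 0.25). S-phase genes were thus not called lower more often than all genes. The median log2 fold change over all genes was 0.197 in this contrast. The 6 line genes named above stood in macrophage-like cells at 4.2% (Pcolce) to 5.95% (Emp2) of their level in line cells, but the gate limits them there. Among line genes that it does not name, the lowest were Ly6c1 at 4.85%, Timp1 at 7.09% and Mgp at 7.31%. These were picked for their low ratios, and dropping whole cells rich in the 6 genes can lower them too. They thus do not measure, apart from the gate, the line RNA carried into other droplets. The 36 genes stood in macrophage-like cells at 30.95% (Cenpf) to 127% (Pcna) of their line cell level, and in T-cell-like cells at 37.4% (Cdc20) to 231% (Slbp). In T-cell-like cells the lowest line genes that the gate does not name were Gsn at 7.43%, Hspb1 at 8.08% and Cryab at 8.42%.

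**Figure D4:**
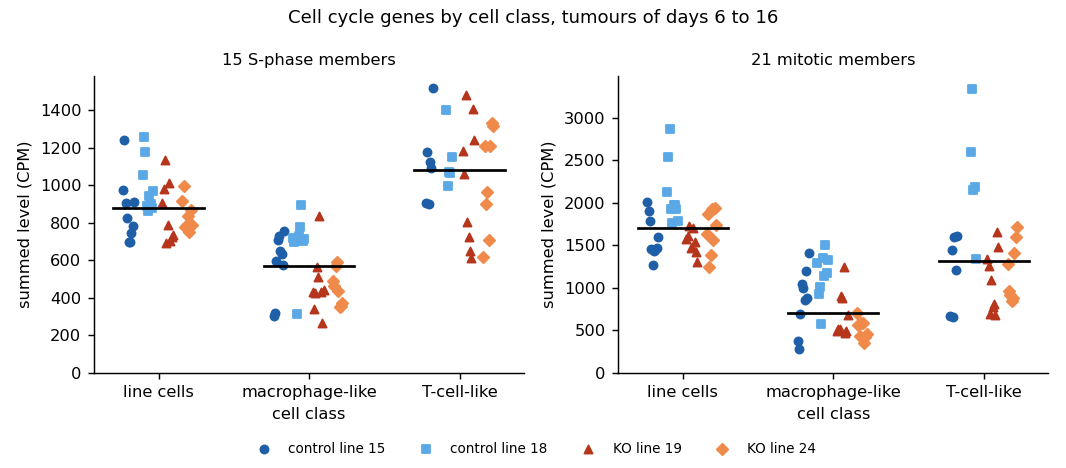
Summed S-phase and summed mitotic level (CPM, vertical axes) in line cells, macrophage-like cells and T-cell-like cells of days 6 to 16, with 1 point per tumour and a black line at the median over the tumours of the 4 lines. The mitotic medians are 1705, 697.1 and 1311 and the S-phase medians 876.0, 566.9 and 1080, in that order of classes.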

How the data were processed

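The deposited values are UMI counts per gene and cell barcode, and hashtag counts per barcode, which the authors made with Cell Ranger 6.0.0 on mm10, per the submitters' processing notes. Barcodes under 300 genes or over 15% mitochondrial UMIs were dropped. HTODemux (Seurat 5.3.0) gave singlets, which removes doublets of 2 hashtags and not those of 1. Hashtags under 0.1% of a library's hashtag counts (line 18 day 0 B and line 24 day 6 B) were left out. Classes were gated on raw marker UMIs. The limit on line genes in macrophage-like and T-cell-like cells was set after seeing the data, and it removed 2195 cells. UMIs were summed per hashtag and class with at least 20 cells. edgeR 4.0.16 (R 4.3.3; filterByExpr, TMM, quasi-likelihood test, Benjamini-Hochberg over all genes, threshold 0.05) was fitted with day, or with line for contrasts of days, and with the tumour as a block between classes. Letters A, B and C occur in both groups. Across genes, deviations of same-letter samples of the 2 groups correlated at 0.131, 0.409 and 0.235 in line cells, at 0.00433, 0.0273 and 0.12 in macrophage-like cells and at −0.0164, 0.00772 and 0.0163 in T-cell-like cells. Pairs of different letters gave −0.385 to 0.155, −0.125 to 0.107 and −0.0429 to 0.0486 in the same order of classes. Scripts were tested on simulated data. Named throughout are Mcm5, Pcna, Rrm2, Mki67, Top2a, Ccnb1 and Cdc20, and per comparison up to 5 called genes of each set by size, those against their set's direction and, where few passed, the 3 of lowest p. Others named with values were chosen after these were seen. Alternatives were DESeq2, RLE scaling, no filter, thinned cells, other gates, hashtag calls and cell filters, lines, days and libraries left out. The members and lists were chosen with earlier results of these data known. UMI counts limit precision for lowly expressed genes.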

Additional observations from a re-analysis of the deposited data

Results flagged for a closer look

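Of 162 groups of 4 to 10 samples examined, 10 held a sample far from the others, and chance alone gives about 1 in 20. In T-cell-like cells of day 16 the line 19 A tumour had an S-phase sum of 608.5 CPM, where the other 5 knockout tumours had 1210 to 1408, and a mitotic sum of 681.5, where they had 1413 to 1716. In the same cells the line 15 C tumour had an S-phase sum of 1519 among controls at 1063 to 1147. There the line 18 B tumour had Cdc20 at 145.6 among controls at 7.038 to 40.06.

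In macrophage-like cells the line 19 C tumours of day 10 and day 16 stood high in single genes. That of day 10 had Mcm5 at 60.62, where the other knockouts had 21.1 to 35.06, and Top2a at 196.6, where they had 67.38 to 102.1. That of day 16 had Cdc20 at 31.22, where they had 0 to 9.012. The line 18 A tumour of day 10 had the lowest S-phase sum of the controls, 313.9 against 648.3 to 777.3. In line cells Top2a of day 10 was at 294.2 in line 24 C and at 164.2 to 212.7 in the other knockouts, and Pcna of day 16 at 68.92 in line 15 A and at 77.21 to 81.04 in the other controls.

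The change from day 0 to day 6 in line cells differed between the groups in 15 S-phase and 21 mitotic genes (15.6% of all genes passed in that direction), and the change from day 6 to day 16 in 3 mitotic genes (5.03% of all genes, near the background), each by a test of the difference itself. The WT tumours, which entered no comparison, lay above the controls 3 times: the mitotic sum of line cells at day 10 was 2104 (controls 1272 to 1980), the S-phase sum of macrophage-like cells at day 10 was 795.2 (controls 313.9 to 777.3), and the mitotic sum of T-cell-like cells at day 6 was 1748 (2 controls at 666.8 and 1444). They lay below every control in the S-phase sum of line cells at day 6, at 857.3 (controls 903.4 to 1257), in that of T-cell-like cells at day 16, at 990.1 (1063 to 1519), and in both sums of macrophage-like cells at day 16, at 483.9 (574.3 to 890.9) and 794.6 (883.7 to 1502).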

How the results depend on the processing

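Over the called values of named genes, 1214 of 1536 alternative values kept direction and call, 302 kept the direction and lost the call and 20 reversed. Of 247 alternative counts of called genes, 168 kept their main direction and stayed within 1.5 times of the reported one. The causes of the changes were not tested. Shares of all genes called are given above for the fits of single days and single lines. For the other alternatives they are not given, so those counts cannot be set against a background. Knockout against control in line cells (27 called) gave 9, 2 and 5 at days 6, 10 and 16 alone, 14 without day 0, 0 with 1 sum per line, 1 in the mixed libraries alone, 0 with library as a term and 18 to 27 without 1 line. In macrophage-like cells (23) it gave 4 thinned, 0 and 2 at days 6 and 10 alone, 6 with 1 sum per line, 4 in the mixed libraries, 1 with library as a term and 2 to 26 without 1 line; day 16 alone (32) gave 8 to 32 without 1 line. In T-cell-like cells (1) it gave 4 with DESeq2, 2 with no filter, 0 thinned, 3 with hashtags called by counts, 0 with the stricter gate, 0, 3 and 0 at days 6, 10 and 16 alone, 0 with 1 sum per line, 0 in the mixed libraries, 0 with library as a term and 0 to 3 without 1 line; day 10 alone (3) gave 0 to 8 without 1 line.

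For line cells, day 6 against day 0 (18, all higher) gave 36 and 36 higher in lines 19 and 24 alone and 14 and 3 lower in lines 15 and 18 alone, 10 in the single-line libraries and 1 to 36 without 1 line. Day 10 against day 6 (7) gave 4 with RLE, 4 with no filter, 18 thinned, 1 with hashtags by counts, 4 with the stricter gate, 27, 27, 3 and 1 in lines 15, 18, 19 and 24 alone, 0 in the single-line libraries and 0 to 14 without 1 line. The group by day term for day 16 against day 6 (3) gave 5 with DESeq2, 5 with no filter, 1 thinned, 0 with hashtags by counts, 1 with the stricter gate and 0 to 3 without 1 line. In macrophage-like cells day 10 against day 6 (9) gave 16 with no filter, 1 thinned, 5 with cells carrying line genes kept and 0 to 20 without 1 line, and the group by day term (0) gave 2 with no filter and 0 to 1 without 1 line. In T-cell-like cells day 10 against day 6 (0) gave 1 with the stricter gate and 1 with cells carrying line genes kept, and day 16 against day 10 (0) gave 1 with DESeq2, 5 with no filter, 1 with the stricter gate and 0 to 8 without 1 line. T-cell-like against macrophage-like cells (26) gave 17 to 28 without 1 line.

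Median shares of thinned cells moved with the rule. With 2000 UMIs, at least 1 UMI and at least 3 UMIs, line cells of day 0 had 67.7, 67.4 and 22.3% (S phase) and 67.9, 69.8 and 36.3% (mitosis) in the controls, and 15.1, 26.02 and 2.69% and 14.49, 25.5 and 7.41% in the knockouts. Macrophage-like cells of day 16 had 29.8, 36.2 and 5.66% and 31.4, 41.0 and 13.6% in the controls, and 15.5, 25.9 and 1.77% and 14.1, 28.1 and 3.12% in the knockouts. The controls had the higher median under each.

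The reversed log2 fold changes were these. Knockout against control in line cells at day 10 alone gave 0.016 for Mcm5, 0.11 for Cdc6 and 0.031 for Tyms. Day 6 against day 0 in line 15 alone gave −0.30 for Mki67, −0.23 for Top2a, −0.28 for Ccnb1, −0.19 for Uhrf1, −0.25 for Mcm4, −0.24 for Gins2, −0.12 for Mcm6, −0.23 for Slbp, −0.065 for Kif23, −0.11 for Kif11 and −0.019 for Nusap1. In line 18 alone it gave −0.10 for Mki67, −0.41 for Uhrf1, −0.45 for Mcm4, −0.28 for Gins2, −0.24 for Mcm6 and −0.34 for Slbp. With the letter as a replicate block (added after seeing the data) knockout against control gave 27, 24 and 1 genes in line, macrophage-like and T-cell-like cells, and no named gene lost its call. T-cell-like cells had the lowest depth, and 17 of the 36 genes could not be tested between the groups there.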
